A study of Mus musculus with 4 samples.

Results

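The enzymes of serine and one-carbon metabolism examined here were 9 genes chosen by symbol: Phgdh, Psat1 and Psph for serine synthesis, Shmt1, Shmt2, Mthfd1, Mthfd2 and Mthfd1l for the folate cycle, and Mat2a for S-adenosylmethionine synthesis. All 9 were found among the 24391 genes of the count table, and all 9 were among the 12266 genes that passed the filter on low counts and were tested. RNA-Seq was measured in Beko cells, a mouse progenitor T-cell line in which Notch signaling is constitutively active. The first group held 2 libraries of cells kept for 48 h in the γ-secretase inhibitor DAPT (GSI), which blocks the formation of the active intracellular domain NICD1. The washout group held 2 libraries of cells that received the same 48 h of GSI, were washed, and then grew for 24 h without it. Both groups therefore received the inhibitor, which the methods say was renewed once, at 24 h. The labels give its dose as 10 mg/ml and the methods as 10 μg/ml. Washed cells that never received GSI were not analysed here, so the 24 h of extra culture and the removal of GSI cannot be told apart. All libraries came from 1 cell line. Nothing states that the replicates were separate cultures. The p-values weigh the difference between the groups only against the spread between these samples, as estimated over the genes tested.

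In serine synthesis, Phgdh oxidizes a glycolytic intermediate, Psat1 transfers an amino group to the product, and Psph removes the phosphate to release serine. Serine hydroxymethyltransferases then pass a carbon from serine to tetrahydrofolate and leave glycine, with Shmt1 mainly in the cytosol and Shmt2 in mitochondria. Mthfd2 and Mthfd1l carry the folate-bound carbon through oxidation to formate in mitochondria, and the trifunctional Mthfd1 takes up formate in the cytosol, where the carbon serves the synthesis of purines and thymidylate. Mat2a makes S-adenosylmethionine, the methyl donor of most methylation reactions. Proliferating T cells are known for a high demand on this pathway.

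The labels' cell type and the activity of the inhibitor were checked first. All 10 genes examined as T-lineage markers had counts in every library. Their summed level was 6695 to 7220 CPM (counts per library size after TMM normalization) after washout and 7788 to 7878 in GSI. The highest of them in every library, Ptprc and Rag1, are not specific to T cells. Within this sum the markers moved apart. Ptcra was upregulated (log2FC 2.37) and Cd3g was higher by the adjusted p-value alone. Ptprc, Tcf7, Bcl11b and Thy1 were lower by the adjusted p-value alone, with log2FCs of -0.89, -0.87, -0.72 and -0.58. Cd3d, Cd3e, Lck and Rag1 did not pass the adjusted p-value. At the adjusted p-value whatever the fold change, 2 of the 10 were higher and 4 lower, against 27.0% and 25.4% of all genes tested. Among markers of other lineages, Pax5, Ms4a1, Lyz2, Mcpt8, Fcer1a and Hba-a1 had no count in any library. The 3 B-cell markers together stayed at or below 0.137 CPM and the 3 erythroid markers at or below 1.41 CPM. The 3 mast cell markers summed to 77.4 and 176 CPM in GSI and to 2.23 and 9.34 CPM after washout, all of it Cpa3. The 4 myeloid markers summed to 38.2 and 49.1 CPM in GSI and to 4.91 and 5.49 CPM after washout, nearly all of it Itgam. The part of these shifts in the results was not tested. In a bulk sample, fewer cells of a type and less RNA per cell cannot be told apart. The Notch targets Hey1 (16.2 and 18.1 CPM in GSI, 180 and 200 CPM after washout) and Dtx1 (46.1 and 64.4 CPM, then 409 and 605 CPM) were higher after washout, by 3.47 and 3.20 on the log2 scale. Hes1 measured 21.8 and 7.68 CPM in GSI and 43.6 and 37.9 CPM after washout, a log2 fold change of 1.42 (adjusted p = 0.0282) that was 0.92 without GSI replicate 2, 2.41 without GSI replicate 1 and missed the threshold in DESeq2 (adjusted p = 0.0732). Libraries held 13716199 to 36364200 counts, and replicate 1 was the deeper one in both groups.

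After washout 8 of the 9 enzymes were upregulated, at an adjusted p-value below 0.05 and a log2 fold change (log2FC) above 1, and none was downregulated. The ninth, Psph, passed the adjusted p-value but rose by only 1.31-fold. Across all genes tested, 7.74% were upregulated and 11.7% downregulated by these thresholds in edgeR's quasi-likelihood test. By the adjusted p-value alone, 9 of 9 enzymes were higher and 0 lower, against 27.0% and 25.4% of all genes. For 9 of 9 both washout libraries lay above both GSI libraries, which held for 38.2% of the genes tested. The median log2FC of the enzymes was 2.02, with a range of 0.39 to 2.23, whereas the median of all genes tested was -0.01. Together the 9 genes took 0.0805% and 0.0866% of all counts in the GSI libraries and 0.235% and 0.243% in the washout libraries.

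**Figure D1:**
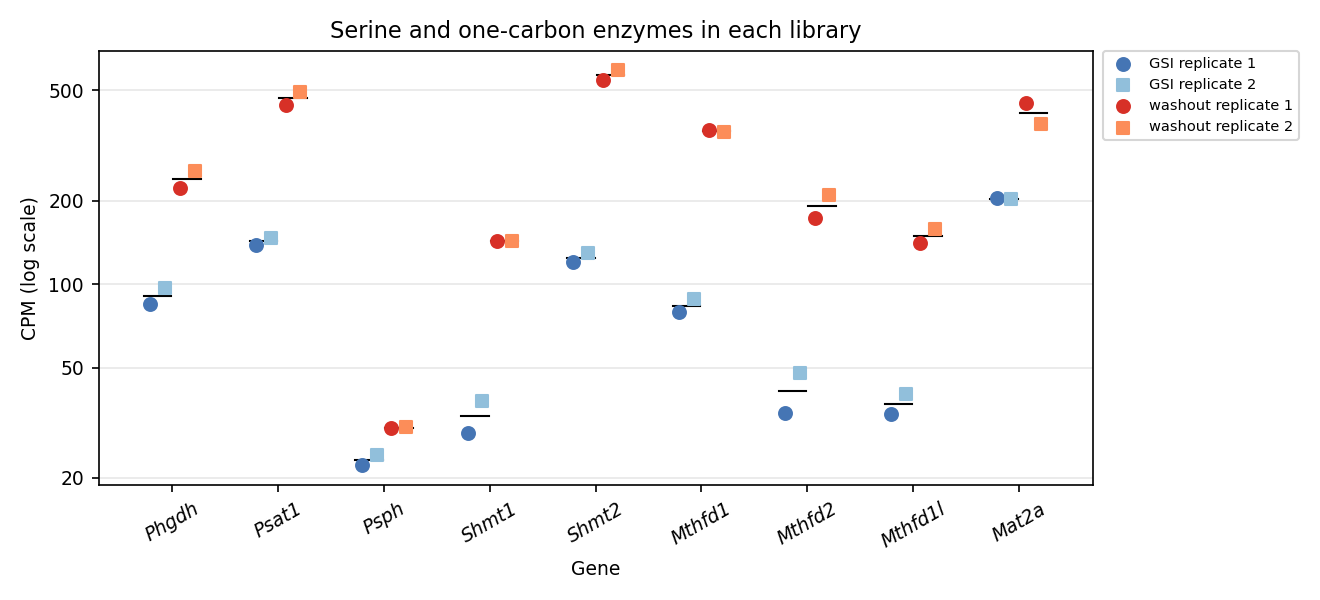
CPM of each of the 9 enzymes on a log axis in the 4 libraries, with GSI in blue, washout in red and orange, and a bar at the mean of each group. Both washout points lie above both GSI points for all 9 genes, by the smallest margin for Psph, where the lower washout library was 1.25-fold above the higher GSI library.

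The promoters of the enzymes of the folate cycle are shown because these genes had the largest rises. Sequences are the 250 bases before the RefSeq start of each gene, from a table on GRCm38.p6, and were located by exact match in mm9, the build of the count table. All 10 windows of the 9 genes matched mm9 once. Capitals mark TGGGAA, the core of the motif of RBPJ, the DNA-binding partner of NICD1, or its complement TTCCCA. For Shmt1 only the stretch around the match is given. GENCODE vM1 places the 5′ end of Shmt1 at 60625220, upstream of the RefSeq start used here, so its window lies within the annotated gene, partly in the first exon, and the stretch shown lies in the first intron. Both windows of Psat1, not shown, also lie within the annotated gene.
Shmt2, chr10:126959501-126959750, minus strand: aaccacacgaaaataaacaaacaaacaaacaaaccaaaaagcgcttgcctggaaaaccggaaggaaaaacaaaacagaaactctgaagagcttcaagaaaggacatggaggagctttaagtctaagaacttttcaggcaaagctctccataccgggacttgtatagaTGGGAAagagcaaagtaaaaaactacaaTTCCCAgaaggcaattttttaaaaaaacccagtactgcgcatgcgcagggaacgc
Shmt1, chr11:60624924-60624953, minus strand: gtcccctcctccTTCCCAccccctccagtt
Mthfd1, chr12:77355969-77356218, plus strand: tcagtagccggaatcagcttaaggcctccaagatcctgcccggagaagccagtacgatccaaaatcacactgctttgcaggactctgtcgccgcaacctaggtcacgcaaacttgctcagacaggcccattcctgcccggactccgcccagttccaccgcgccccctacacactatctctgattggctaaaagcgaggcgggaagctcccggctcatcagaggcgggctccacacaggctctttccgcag
Mthfd1l, chr10:6373467-6373716, minus strand: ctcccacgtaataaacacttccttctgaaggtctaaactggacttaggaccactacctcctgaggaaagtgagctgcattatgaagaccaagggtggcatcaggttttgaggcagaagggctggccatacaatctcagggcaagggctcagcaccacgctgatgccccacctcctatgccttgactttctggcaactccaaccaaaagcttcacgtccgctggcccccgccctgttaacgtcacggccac
Mthfd2, chr6:83267599-83267848, minus strand: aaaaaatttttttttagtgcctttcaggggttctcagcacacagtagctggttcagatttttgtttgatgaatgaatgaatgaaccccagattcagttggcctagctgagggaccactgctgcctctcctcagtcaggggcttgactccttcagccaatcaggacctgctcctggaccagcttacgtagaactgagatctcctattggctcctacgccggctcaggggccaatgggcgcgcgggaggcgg

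TGGGAA was looked for on both strands of these 250 bases, together with CACGTG, the E-box bound by Myc, and TGATGNAA, an element bound by Atf4 with its partners. The motifs do not overlap one another in any of the enzymes. Shmt2 held TGGGAA 2 times, on the plus strand 83 bases and on the minus strand 55 bases before the start. Shmt1 held it 1 time, on the minus strand 174 bases before the RefSeq start, within the gene as GENCODE vM1 annotates it. The other 7 genes had no match, and neither CACGTG nor TGATGNAA was found in any of the windows. Among all 32851 mouse promoter windows of the table, 21.6% held TGGGAA, 6.02% held CACGTG and 3.45% held TGATGNAA. A match describes the letters and is not a measured binding site. The study found RBPJ sites with reduced binding in GSI preferentially away from gene starts. Their motif was TGRGAA, with R as A or G. TGAGAA and bases outside these windows were not searched, so a missing match does not show that a gene lacks such a site.

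Shmt2, the mitochondrial serine hydroxymethyltransferase, measured 120 and 129 CPM in the GSI libraries and 544 and 590 CPM after washout. Its log2FC was 2.19 with a standard error (SE) of 0.111, a 4.55-fold rise with an adjusted p-value of 0.000281. The lower washout library was 4.21-fold above the higher GSI library, the widest gap of the 9 genes. Shmt2 lies on chromosome 10 at 126954195 to 126959491 of mm9, on the minus strand, and shares 14 exon bases (0.61% of its exon length) with Ndufa4l2 on the other strand. Ndufa4l2 measured 0.0938 and 0.343 CPM in GSI and 0.823 and 1.56 CPM after washout, a log2FC of 2.60 (adjusted p = 0.0201) that was 1.69 and did not pass without GSI replicate 1. Its levels were far below those of Shmt2 in every library, and in GSI replicate 1 its level was that of only 3 counts.

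Mthfd2, the dehydrogenase and cyclohydrolase of the mitochondrial pathway, measured 34.2 and 47.9 CPM in GSI and 174 and 210 CPM after washout. It had the highest log2FC of the 9 genes, 2.23 (SE 0.186, adjusted p = 0.000445), and also the widest spread between replicates, 1.40-fold between the GSI libraries. Its log2FC exceeded those of Shmt2, Shmt1, Mthfd1 and Mthfd1l by less than 2 of its own SEs, and the order of these 5 genes was not tested. Mthfd1l, which releases formate from the folate in mitochondria, measured 33.9 and 40.2 CPM in GSI and 141 and 158 CPM after washout, with a log2FC of 2.02 (SE 0.124, adjusted p = 0.000305). The 3 mitochondrial genes thus rose together by about the same factor, from 0.0203% and 0.0231% of all counts in GSI to 0.0804% and 0.0891% after washout. In mm9 Mthfd2 lies on chromosome 6 at 83255685 to 83267600 and Mthfd1l on chromosome 10 at 6179460 to 6373423, both on the minus strand.

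The cytosolic enzymes rose by similar factors. Mthfd1 measured 79.0 and 88.2 CPM in GSI and 359 and 355 CPM after washout, with a log2FC of 2.10 (SE 0.105, adjusted p = 0.000281). Shmt1, the cytosolic serine hydroxymethyltransferase, measured 29.1 and 37.8 CPM in GSI and 143 CPM in both washout libraries. Its log2FC was 2.11 (SE 0.141, adjusted p = 0.000334). The GSI libraries differed by 1.30-fold for Shmt1, and both washout libraries were far above them. Mthfd1 lies on chromosome 12 at 77356219 to 77420807 on the plus strand, and Shmt1 on chromosome 11 at 60601606 to 60625220 on the minus strand. Shmt1 shares 184 exon bases (4.74% of its exon length) with Smcr8 on the other strand. Because the strand setting of the counting is not given in the sources used here, reads there could be counted for either gene, and Smcr8 itself had a log2FC of -0.26 (adjusted p = 0.139).

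**Figure D2:**
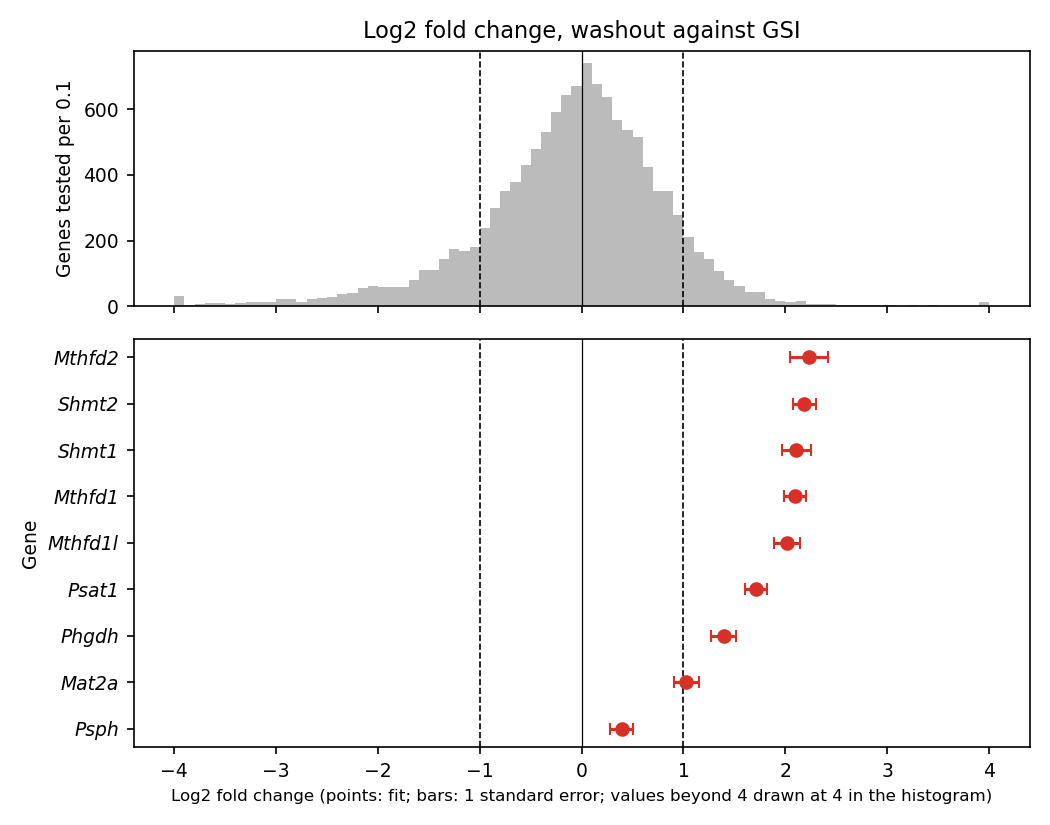
Upper panel, histogram of the log2FC of washout against GSI for the 12266 genes tested. Lower panel, log2FC of each enzyme with bars of 1 SE and dashed lines at the thresholds of 1 and -1. The 5 folate enzymes lie between 2.02 and 2.23, Psat1 and Phgdh between them and the threshold, Mat2a at 1.03 and Psph at 0.39.

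The 3 genes of serine synthesis were less uniform. Psat1, the aminotransferase, measured 138 and 147 CPM in GSI and 443 and 494 CPM after washout, with a log2FC of 1.71 (SE 0.110, adjusted p = 0.000315). Phgdh, the first enzyme of the pathway, measured 84.9 and 96.9 CPM in GSI and 222 and 256 CPM after washout, with a log2FC of 1.40 (SE 0.122, adjusted p = 0.000490). For both genes the rise was several times the spread between replicates. Psph, the last step, measured 22.2 and 24.2 CPM in GSI and 30.3 and 30.4 CPM after washout. Its log2FC was 0.39 (SE 0.113, adjusted p = 0.0281), and the groups did not overlap. This call was lost without GSI replicate 1 (adjusted p = 0.191), without GSI replicate 2 (0.0714), without washout replicate 1 (0.0603), in DESeq2 (0.0650) and when libraries were scaled by their total count (0.191). The 3 genes lie in mm9 on the minus strands of chromosome 3 at 98117093 to 98143913 (Phgdh), chromosome 19 at 15979168 to 16021827 (Psat1) and chromosome 5 at 130271434 to 130293129 (Psph). Phgdh is the only enzyme of the 9 with other near-identical stretches in the genome, 2 places that align to at least 50% of its transcript at 90% identity or more, the closest at 98.8%. Reads could have been assigned to either place, and its level is uncertain to that extent.

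Mat2a, the catalytic subunit of methionine adenosyltransferase outside the liver, measured 205 and 202 CPM in GSI and 452 and 377 CPM after washout. It was upregulated with a log2FC of 1.03 (SE 0.121, adjusted p = 0.00110), just above the threshold. Its log2FC was 0.90 without washout replicate 1, 0.83 with scaling by total count, 0.86 with GC content and exon length in the fit and 0.99 with at least 10 counts required in every library, and in these fits Mat2a passed the adjusted p-value but not the fold threshold. Mat2a lies on the minus strand of chromosome 6 at 72382793 to 72389552 of mm9.

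To compare levels between genes, CPM were divided by the exon length in kilobases (CPM per kb). In GSI, Mat2a was the highest of the enzymes at 60.4 and 59.7 CPM per kb, followed by Shmt2 at 52.6 and 56.7. After washout Shmt2 was the highest at 239 and 259, and Mat2a measured 133 and 111. The order of Mat2a and Shmt2 was therefore opposite in the groups, with no overlap of the libraries in either.

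Phgdh and Psat1 overlapped in GSI, at 34.1 and 39.0 against 32.6 and 34.6 CPM per kb. After washout Mat2a overlapped with Psat1 (104 and 116), and Psat1 with Mthfd1 (108 and 107), while Phgdh reached 89.2 and 103. Mthfd1 had been lower, at 23.8 and 26.5, in GSI. The 5 most abundant enzymes were the same in both groups.

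Mthfd2 rose from 12.6 and 17.6 to 63.8 and 77.2 CPM per kb, whereas Psph, which overlapped with it in GSI at 12.2 and 13.3, reached 16.7 in both washout libraries. Shmt1 (7.49 and 9.74) and Mthfd1l (7.65 and 9.07) were the lowest in GSI and overlapped. After washout they measured 36.9 in both libraries and 31.8 and 35.6, and Psph was the lowest of the 9.

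**Figure D3:**
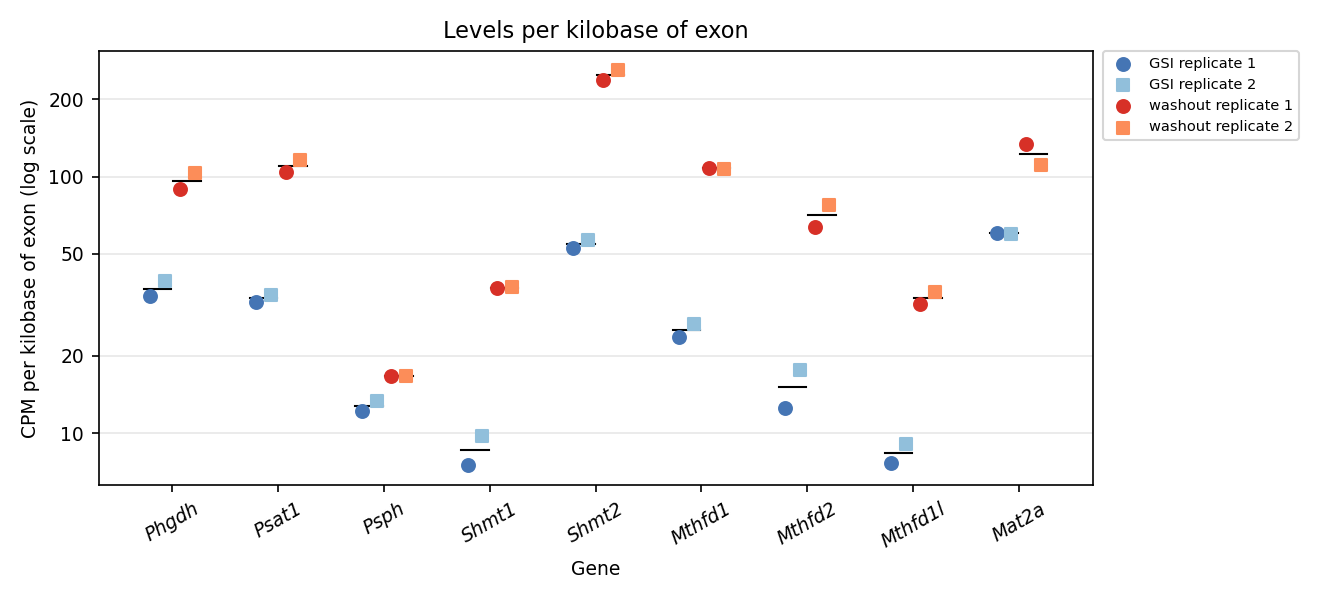
Level of each enzyme in CPM per kb of exon, on a log axis, in the 4 libraries, with a bar at the mean of each group. Mat2a is the highest gene in GSI and Shmt2 after washout, and Psph moves from above Shmt1 and Mthfd1l in GSI to below all others after washout.

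Ratios between enzymes within a library do not depend on how libraries are scaled, and 6 pairs were compared, each on levels per kilobase of exon. The exact two-sided permutation test with 2 libraries against 2 cannot give a p below 0.333, so no pair could pass a threshold of 0.05 in this test. The ratio of mitochondrial Shmt2 to cytosolic Shmt1 was 7.02 and 5.82 in GSI and 6.47 and 7.01 after washout. The log2 ratio differed by 0.08 with a pooled SD of 0.147 (exact permutation p = 1), less than the spread between replicates. The ratio of Mthfd2 to Mthfd1 was 0.528 and 0.663, then 0.590 and 0.723, a log2 difference of 0.14 with a pooled SD of 0.220 (exact permutation p = 0.667). That of Mthfd1l to Mthfd1 was 0.322 and 0.342, then 0.295 and 0.333, a log2 difference of -0.08 with a pooled SD of 0.0993 (exact permutation p = 0.667). In these 3 pairs of a mitochondrial and a cytosolic enzyme, the libraries of the groups overlapped.

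The other 3 pairs did not overlap between groups. The ratio of Mthfd2 to its paralog Mthfd2l, which catalyzes the same mitochondrial step, was 5.69 and 8.08 in GSI and 21.5 and 31.3 after washout, a log2 difference of 1.94 (pooled SD 0.373). Mthfd2l itself measured 4.94 and 4.87 CPM in GSI and 6.64 and 5.51 CPM after washout, with a log2FC of 0.32 that did not pass the test (adjusted p = 0.258). The ratio of Phgdh to Shmt2 was 0.649 and 0.688, then 0.374 and 0.398, a log2 difference of -0.79 (pooled SD 0.0620).

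The ratio of Mat2a to Mat2b, the regulatory subunit, was 5.98 and 6.14 in GSI and 8.64 and 8.11 after washout, a log2 difference of 0.47 (pooled SD 0.0494). Mat2b measured 50.5 and 48.7 CPM, then 77.2 and 68.7 CPM, with a log2FC of 0.56 (adjusted p = 0.00519). Each of these 3 pairs had an exact permutation p of 0.333, the smallest possible, and 0.666 after Benjamini-Hochberg adjustment over the 6 pairs. The adjusted values of the 3 overlapping pairs were 0.8 or 1.0.

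**Figure D4:**
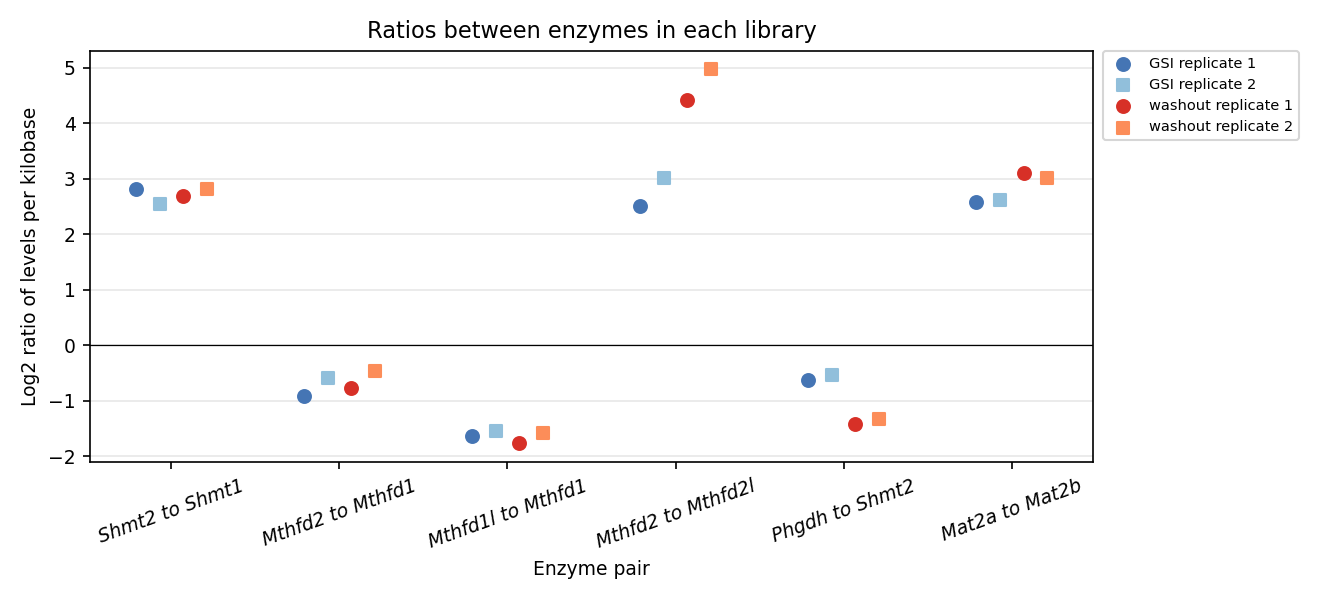
Log2 ratio of levels per kilobase of exon for 6 pairs of enzymes in each of the 4 libraries. The libraries of the groups overlap for the 3 mitochondrial to cytosolic pairs on the left and are apart for the 3 pairs on the right.

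A list of 62 further genes of the surrounding pathways, of which 48 were tested, was read from the same fit. Of these 15 were upregulated and 2 were downregulated, where 7.74% and 11.7% of all genes tested were. By the adjusted p-value alone 29 were higher and 4 lower, against 27.0% and 25.4% of all genes. The other 15 did not pass the adjusted p-value, nor did 5831 of the 12266 genes tested. The median log2FC of the 48 genes was 0.61. The nucleotide steps that consume one-carbon units rose in 3 of 3 genes. Atic, which completes the purine ring, measured 68.8 and 74.6 CPM in GSI and 295 CPM in both washout libraries (log2FC 2.04). Gart, which acts earlier on that route, had a log2FC of 1.68, and Tyms, the thymidylate synthase, one of 1.42.

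In the folate cycle and folate handling 2 of 9 genes tested were upregulated and none was downregulated. Slc19a1, the reduced folate carrier, measured 10.2 and 12.3 CPM in GSI and 28.7 and 30.5 CPM after washout (log2FC 1.40). Among genes of glycine cleavage and serine use 1 of 10 was upregulated and 1 downregulated, shares close to the 7.74% and 11.7% of all genes. Gcsh, the carrier protein of the glycine cleavage system, measured 26.1 and 24.8 CPM, then 63.0 and 56.0 CPM (log2FC 1.23). Amt, the aminomethyltransferase of the same system, went the other way, from 3.63 and 4.87 to 1.32 and 1.34 CPM (log2FC -1.66, adjusted p = 0.00509). Gldc, its decarboxylase, had 1 count over the 4 libraries and was not tested, a gene named after its values were seen.

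In the methionine cycle and salvage 5 of 15 genes were upregulated and none was downregulated, against 7.74% and 11.7% of all genes tested. Srm, the spermidine synthase, rose most of the whole list, from 22.1 and 26.8 to 144 and 135 CPM (log2FC 2.52, SE 0.125, adjusted p = 0.000281). Mtap, which salvages the byproduct of polyamine synthesis, had a log2FC of 1.75, and Amd1, which makes the aminopropyl donor from S-adenosylmethionine, one of 1.33. Ahcy, which hydrolyzes S-adenosylhomocysteine, and Enoph1, of the salvage route, had log2FCs of 1.19 and 1.20. Both fell below the fold threshold, at 0.99 and 0.998, when libraries were scaled by total count. None of the 3 genes tested in transsulfuration and glutathione synthesis passed both thresholds. By the adjusted p-value alone 2 of these 3 were higher and 0 lower, against 27.0% and 25.4% of all genes. Their median log2FC was 0.61.

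Among 8 transporters of serine and glycine, 4 were upregulated and 1 was downregulated, against 7.74% and 11.7% of all genes tested. The downregulated share was thus close to that of all genes. Slc1a4, a neutral amino acid transporter that carries serine, measured 7.56 and 8.77 CPM in GSI and 27.5 and 38.3 CPM after washout (log2FC 2.01). The glycine transporter Slc6a9, the mitochondrial serine transporter Sfxn1 and the neutral amino acid transporter Slc1a5 had log2FCs of 1.23, 1.14 and 1.05. Leaving out 1 library put each of the 3 below the fold threshold at least once, Slc6a9 at 0.997 and Slc1a5 at 0.999 without washout replicate 2, Slc1a5 at 0.98 without GSI replicate 1 and Sfxn1 at 0.97 without washout replicate 1. With total count scaling Sfxn1 and Slc1a5 were at 0.94 and 0.85. Sfxn3, a homolog of Sfxn1, fell from 13.7 and 13.4 to 4.26 and 6.25 CPM (log2FC -1.40, adjusted p = 0.00336).

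**Figure D5:**
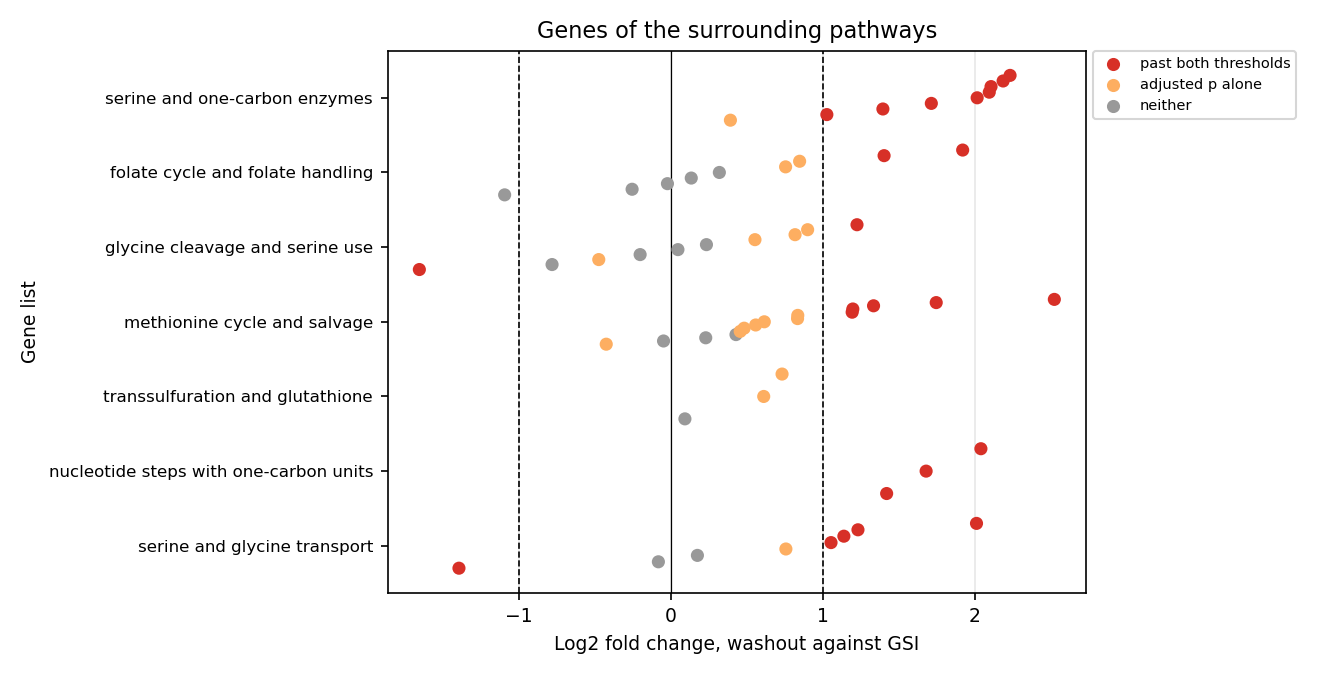
Log2FC of washout against GSI for each tested gene of the 9 enzymes and of the 6 lists of surrounding pathways, colored by whether the gene passed both thresholds, the adjusted p-value alone, or neither. The 3 nucleotide genes all lie to the right of 1, and Amt and Sfxn3 are the 2 red points to the left of -1.

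Of 3 regulators known to act on these enzymes in other settings, 1 was upregulated, 1 passed the adjusted p-value alone and 1 did not pass. Of all genes tested, 7.74% were upregulated and 5831 of 12266 did not pass the adjusted p-value. At the adjusted p-value whatever the fold change, 2 of the 3 were higher, against 27.0% of all genes. Atf4, a transcription factor of the amino acid response, measured 163 and 181 CPM in GSI and 373 and 506 CPM after washout (log2FC 1.35, adjusted p = 0.00123). Myc measured 157 and 152 CPM, then 283 and 334 CPM, with a log2FC of 0.997 (adjusted p = 0.00102), just under the fold threshold. Myc was above it in 6 of the 14 alternatives run. Nfe2l2, a factor of the antioxidant response, measured 89.1 and 87.7 CPM in GSI and 92.0 and 79.5 CPM after washout (log2FC -0.04, adjusted p = 0.761).

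Of 6 Atf4 targets outside the pathway, 5 were tested, and in edgeR's test without a block none was upregulated and 1 was downregulated. Of all genes tested, 7.74% and 11.7% were. By the adjusted p-value alone 0 were higher and 2 lower, against 27.0% and 25.4% of all genes. Ddit4 fell from 250 and 275 to 93.3 and 185 CPM (log2FC -0.92, adjusted p = 0.0402). Its log2FC was -0.90 in DESeq2 (adjusted p = 0.119) and -1.12 with total count scaling (adjusted p = 0.0201). Ddit3 had a log2FC of -0.16 (adjusted p = 0.423). Sesn2, a stress-induced gene, fell from 52.0 and 58.6 to 21.4 and 29.4 CPM (log2FC -1.13, adjusted p = 0.00243), with a log2FC of -0.90 without washout replicate 1 and of -0.79 with GC content and exon length in the fit. Trib3, a pseudokinase gene, measured at most 2.74 CPM in GSI and 2.44 and 10.6 CPM after washout, and its log2FC of 1.83 did not pass (adjusted p = 0.0958). It passed both thresholds in 7 of 14 alternatives, among them DESeq2 (adjusted p = 0.0109), and leaving out 1 library gave a log2FC from 0.49 without washout replicate 2 to 2.64 without GSI replicate 2. Chac1, which degrades glutathione, measured 1.84 and 4.32 CPM, then 4.85 and 12.3 CPM, and did not pass either (adjusted p = 0.0653). It passed both thresholds in 9 of 14 alternatives, among them DESeq2 (adjusted p = 0.00738), with a log2FC from 0.73 without washout replicate 2 to 2.18 without GSI replicate 2. The groups overlapped for Trib3, and for Chac1 the lower washout library lay close to the higher GSI library.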

How the data were processed

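RNA-Seq of 4 Beko libraries, 2 per condition, was used. Per the labels and methods, RNA was made into stranded libraries after removal of ribosomal RNA, and trimmed reads were aligned by the authors against mm9 with HISAT2 (2.2.1 in the submitters' processing notes), then counted per gene. The deposited values are raw counts, without normalization. Strand setting and overlap mode are not given in the sources used here.

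Counts were tested with edgeR 4.0.16 in R 4.3.3 (filterByExpr, TMM, quasi-likelihood test, no covariates) over 12266 genes, with Benjamini-Hochberg adjustment over all of them. A call needed an adjusted p below 0.05 and a change of more than 1 on the log2 scale in either direction, as in the study. Each SE was obtained from the log2 fold change and the F statistic (their ratio after taking the root of F). The biological coefficient of variation was 0.121. Replicates differed by more than sampling noise (chi-square per degree of freedom 18.3 in GSI and 29.2 after washout). At 3 counts a gene would lie at 0.0881 to 0.223 CPM, and the fewest counts of any of the 9 enzymes in a library were 353. The scripts were tested on simulated counts.

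Positions, exon lengths and GC content came from GENCODE vM1 on mm9, where 20641 of 24391 symbols matched, and near-identical copies were found with minimap2 2.31. Promoters are from RefSeq (GRCm38.p6).

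The enzymes and gene lists were chosen with earlier results of these data known. Named genes were the 9 enzymes, every pathway gene past both thresholds, the partners of the 6 enzyme pairs, the regulators and Atf4 targets, cell type markers, overlapping neighbors, and Hes1, Hey1 and Dtx1. Some genes of the lists are counted but not reported here by name. Alternatives were DESeq2 1.42.0, its size factors (RLE), total count scaling, filters of 1 count or of 10 counts in every library, GC content and exon length, a block for the replicate number, thinning of every library to 13716199 counts, the adjusted p alone, 0.5 counts added in the ratios, and leaving out each library.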

Additional observations from a re-analysis of the deposited data

How the results depend on the processing

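All 9 enzymes stayed higher after washout in each of the 14 alternative fits, and 121 of their 126 values stayed on the same side of the call that uses both thresholds. The other 5 were Mat2a, at 0.83 with total count scaling, 0.99 with at least 10 counts in every library, 0.86 with GC content and exon length, with or without the replicate block, and 0.90 without washout replicate 1. In these fits 7 enzymes were upregulated instead of 8. Psph, called by the adjusted p alone, lost that call with DESeq2, with total count scaling, and without GSI replicate 1, GSI replicate 2 or washout replicate 1, which left 8 enzymes of 9. The adjusted p alone gave 29 higher and 4 lower genes of the pathway list and 3315 higher and 3120 lower of all genes. Total count scaling moved the median of all genes to -0.21 and that of the enzymes to 1.82, 586 genes were then upregulated, and the share of calls that were higher went from 39.8% to 23.0%. Leaving out 1 library gave medians of the enzymes from 1.89 to 2.15, 7 to 8 upregulated enzymes, 14 to 17 upregulated and 2 to 3 downregulated pathway genes, and 881 to 1064 upregulated and 1118 to 1375 downregulated genes of all tested, with the lone library assumed to vary like the other group. Among 713 single-gene values, 661 kept their side of the call, 32 newly passed both thresholds, 19 no longer passed and 1 changed sign, Nfe2l2, whose values ran from -0.15 without washout replicate 1 to 0.073 without washout replicate 2.

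Replicate numbers are shared between the groups, but nothing says that they pair the samples, and with 2 pairs the deviations correlated at 0.469 while replicate 1 was deeper in both groups. With the replicate number as a block, 981 genes were upregulated and 1576 downregulated, against 950 and 1437, and 8 enzymes were upregulated. The exact permutation test of the enzyme ratios cannot give a p below 0.333 with 2 libraries per group. The sign of the log2 difference turned when 1 library was left out for Shmt2 to Shmt1 (-0.06 to 0.21), Mthfd2 to Mthfd1 (-0.02 to 0.31) and Mthfd1l to Mthfd1 (-0.17 to 0.01), the 3 pairs that overlapped.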
